A study of Mus musculus with 2 samples.

Results

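The expression of 10 genes of lipid uptake, lipid carriage and lipid droplets, Cd36, Lpl, Angptl4, Fabp4, Fabp5, Plin2, Pnpla2, G0s2, Car3 and Apoe, was examined in single cells of aged gonadal white adipose tissue (gWAT). They were picked by gene symbol, and all 10 were found among the 31054 genes counted in both libraries. The cells came from 18-month-old male p16-CreERT2/R26-LSL-tdTomato mice. Both libraries share this genotype and age: tamoxifen, given to all mice in 5 daily doses and followed by 2 weeks of waiting, turns on Cre in cells that use the p16 locus, and Cre in turn permits expression of the red fluorescent protein tdTomato, also in cells that stop using p16 later. CD31- CD45- cells, that is, cells without the surface proteins of endothelial and blood cells, were sorted into tdTomato-positive (Tom+) and tdTomato-negative (Tom-) cells, and 1 droplet library was made of each. How many mice were pooled is not given in the sources used here, and the sort started from the pelleted stromal vascular fraction, from which floating fat-filled adipocytes had been discarded with the supernatant.

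Fat cells and their precursors take up fatty acids that lipoprotein lipase frees from lipoproteins, carry them through the cytoplasm on small binding proteins and store them as triglyceride in droplets, whose coat proteins govern how fast lipases break the store down again. In adipose tissue most of these genes are targets of PPARγ, the master regulator of fat cell formation, and their levels climb as a precursor commits to becoming an adipocyte. Macrophages and endothelial cells of the same tissue also use several of them, Cd36, Lpl and Plin2 among them.

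Unique molecular identifiers (UMIs, one for each captured RNA molecule) were summed over the cells of a class and scaled to a class total of 1000000 UMIs (CPM). Cells with at least 10 UMIs of Msln, Upk3b, Krt19, Lrrn4 and Upk1b together were taken as mesothelial cells, the lining cells of the organ surface, and cells with under 5 as stromal cells, which include the adipocyte progenitor cells. This gave 3263 stromal and 250 mesothelial cells of the Tom+ library and 4800 stromal and 1887 mesothelial cells of the Tom- library. The stromal classes largely fit their label: the 7 stromal markers summed to 28503 CPM in Tom+ against 30640 CPM in Tom- stromal cells, and Pdgfra, the receptor that marks progenitors, had a UMI in 92.3% and 87.2% of them. Summed mesothelial markers were at 5915 and 6054 CPM in the mesothelial cells, against 179 and 296 CPM in the stromal cells. Of these 8 markers, 5 are the genes that defined the classes, so this gap was in large part set by the rule. Mesothelial cells also held stromal markers at 13049 and 14511 CPM, and 44.4% and 40.0% of them had a Pdgfra UMI. Barcodes with no more than 1000 genes held Fabp4 at 599 and 775 CPM and Lpl at 165 and 305 CPM. Both are above the mesothelial levels given below. So were Angptl4 at 99.4 and 120 CPM, G0s2 at 36.5 and 70.7 CPM, and Fabp5 at 336 and 418 CPM. Fabp5 was there above its stromal levels too. Apoe, at 815 and 1033 CPM, Pnpla2 and Car3 were below their mesothelial levels in both libraries. Plin2 and Cd36 were below them in the Tom+ and above them in the Tom- library. Of the Tom+ barcodes with so few genes, 1678 of 1892 were also listed in the Tom- library. Among those listed in 1 library only, Fabp5 was at 39.0 CPM (21.3 to 65.4) in Tom+, below its stromal and mesothelial levels. In Tom- it was at 411 CPM, and Car3 at 17.3 CPM (12.1 to 23.9) was there above its mesothelial level. How far RNA from other cells adds to the mesothelial levels was not tested. Cells of other types were left in both sorts. The 9 macrophage markers summed to 262 CPM in Tom+ against 47.7 CPM in Tom- stromal cells, and to 761 and 46.1 CPM in mesothelial cells. The 10 adipocyte markers summed to 15.3 and 17.2 CPM in stromal cells, with Lep and Pck1 at 0 in the Tom+ library, and 9 of the 10 were below 5 CPM in each. At least 20% of UMIs were from immunoglobulin genes in 126 Tom+ and 43 Tom- stromal cells. These held 5147164 of the 51104409 UMIs of Tom+ and 1687913 of the 57883866 UMIs of Tom- stromal cells, which count in the CPM totals. The 6 B and plasma cell markers summed to 59782 CPM in Tom+ and 14456 CPM in Tom- stromal cells. Of the cell barcodes, 2224 were listed in both libraries, and 9 passed quality control in both. Of the cells that passed, 506 Tom+ and 284 Tom- cells had a barcode listed in both. These were 404 of the 3263 stromal and 100 of the 250 mesothelial Tom+ cells. In the Tom- library they were 75 of the 4800 stromal and 207 of the 1887 mesothelial cells. With 1 library per sorted population there is no replicate error and no test, and a difference between Tom+ and Tom- cells cannot be told apart from a difference between the preparations. All intervals are exact 95% intervals that cover counting error only. Between genes, CPM depends on how well each 3′ end is captured, so each gene is compared with itself.

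**Figure D1:**
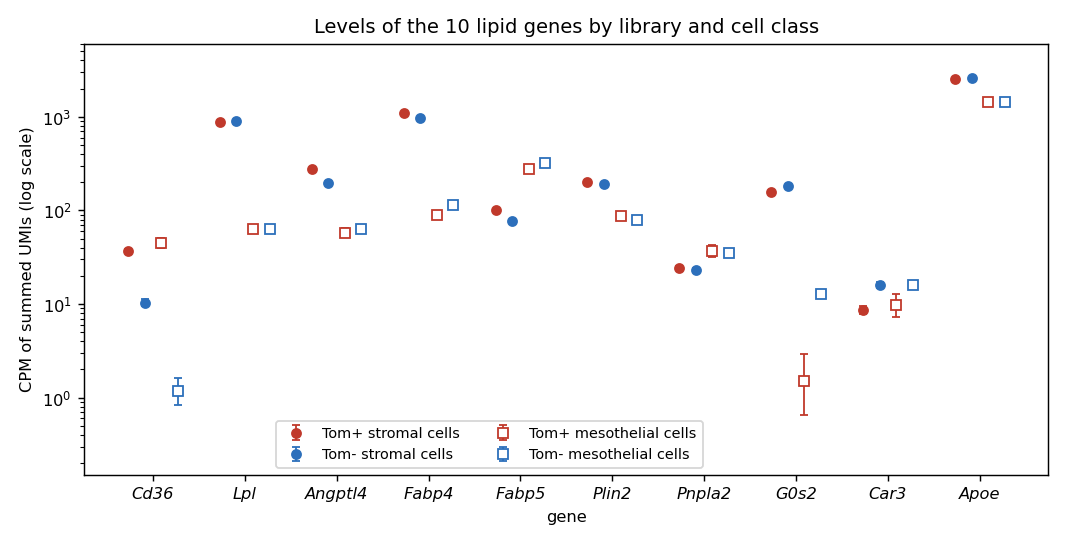
Levels of the 10 genes as CPM of summed UMIs on a log scale, with filled circles for stromal and open squares for mesothelial cells, red for the Tom+ and blue for the Tom- library, and bars for exact Poisson 95% intervals. Lpl, Angptl4, Fabp4, Plin2 and G0s2 sit higher in stromal cells of both libraries, Fabp5 sits higher in mesothelial cells, and Cd36 is lowest in Tom- mesothelial cells.

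Stromal and mesothelial cells divided the genes sharply. Lpl, Angptl4, Fabp4, Plin2 and G0s2 were at least 2-fold lower in mesothelial than in stromal cells in both libraries, whereas Fabp5 alone was at least 2-fold higher. These 5 of 10 genes stand against 8.04% of the 9907 genes tested that were lower by this rule, and Fabp5 against 10.7% that were higher. In the Tom+ library G0s2 reached the mean of 5 CPM required for a call only through the stromal cells. Pnpla2 was moderately higher in mesothelial cells, Apoe lower, and Car3 about level over all cells. Cd36 was higher in mesothelial cells of the Tom+ library (log2 ratio 0.30) and lower in those of the Tom- library (-3.14), but without cells that hold macrophage, adipocyte or immunoglobulin RNA past set limits, given below, it was lower in both, at -2.80 and -3.16. Car3 without those cells was higher in mesothelial cells of both libraries, at 3.63 and 1.22. A single Tom+ mesothelial cell held 37 of the 50 Car3 UMIs behind the first value. Between Tom+ and Tom- cells the differences were smaller for most genes. In stromal cells, 3 of the 10 genes, Cd36, Angptl4 and Fabp5, were higher in the Tom+ library by a log2 ratio of at least 0.35, beside 14.8% of the 9778 genes tested, and 1, Car3, was lower by as much, beside 8.16%. In mesothelial cells only Cd36 was higher, beside 7.34% of 10014 genes, and Fabp4, G0s2 and Car3 were lower, beside 4.27%. Of these, Cd36 reached the mean of 5 CPM required for a call only through the Tom+ cells, and G0s2 only through the Tom- cells. All genes tested had median log2 ratios of 0.071 in stromal and 0.032 in mesothelial cells.

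Cd36 encodes the fatty acid translocase, a surface receptor that brings long-chain fatty acids and oxidized lipoproteins into adipocytes and macrophages. The gene (ENSMUSG00000002944) lies on chromosome 5 of GRCm38 from 17781690 to 17888801 on the minus strand. Its RNA was at 36.7 CPM (35.1 to 38.4) in Tom+ stromal cells and 10.4 CPM (9.57 to 11.2) in Tom- stromal cells. Mesothelial cells held 45.3 CPM (39.7 to 51.4) in the Tom+ library against 1.17 CPM (0.831 to 1.61) in the Tom- library. Tom+ cells were thus higher in both classes, by a log2 ratio of 1.82 (1.69 to 1.96) in stromal and 5.27 (4.77 to 5.80) in mesothelial cells, at percentiles 99.7 and 99.8 of all genes tested. Few cells made up these levels. A Cd36 UMI was found in 8.61% of Tom+ and 3.62% of Tom- stromal cells, and in 5.75% (4.94 to 6.64) and 2.82% (2.34 to 3.37) once every cell was thinned to 7563 UMIs. No class here is known to lack Cd36 RNA. The lowest thinned share was that of Tom- mesothelial cells, 0.951% (0.555 to 1.52).

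In the Tom+ library much of the Cd36 RNA lay in cells that also held macrophage RNA. Of the Tom+ stromal cells, 58 (1.78%) held at least 5 UMIs of the 9 macrophage markers, and they contained 31.5% of the class's Cd36 UMIs at 380 CPM (350 to 412). In the Tom- library 25 stromal cells (0.521%) did, with 10.8% of the Cd36 UMIs at 111 CPM (85.9 to 142). Lyz2, the lysozyme of macrophages, is 1 of the 9 markers that picked these cells, so its gap follows from the choice. It was at 4089 and 1716 CPM in them, against 6.03 and 3.18 CPM in the remaining stromal cells. Those had under 5 UMIs of macrophage markers, under 5 of adipocyte markers and under 1% immunoglobulin UMIs. Cells past any of these limits are called marker-bearing cells from here on. Median depths were 19843 (Tom+) and 14330 (Tom-) UMIs in stromal cells with macrophage markers, against 14019 and 11221.5 in those within all limits. Among mesothelial cells of the Tom+ library the concentration was stronger: 20 of 250 cells with macrophage markers held 226 of the 241 Cd36 UMIs, or 93.8%. In the Tom- library 17 of 1887 such cells held 6 of the 38 Cd36 UMIs, or 15.8%, at 12.9 CPM (4.74 to 28.1). Without the marker-bearing cells, Tom+ mesothelial cells were left with 3.14 CPM (1.76 to 5.18) and Tom- mesothelial cells with 0.973 CPM (0.661 to 1.38). The log2 ratio was then 1.69 (0.70 to 2.62) from 15 and 31 UMIs, and Cd36 no longer passed the 5 CPM required for a call. In stromal cells within all the limits, Cd36 was at 21.9 CPM (20.6 to 23.3) in the Tom+ and 8.68 CPM (7.92 to 9.49) in the Tom- library, for a log2 ratio of 1.34 (1.18 to 1.5), smaller than over all stromal cells and still above the fold.

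Stromal cells with much Cd36 RNA that were not marker-bearing were found in both libraries. At least 5 Cd36 UMIs were counted in 58 of 3072 such Tom+ cells, a share of 1.89% (1.44 to 2.43), and in 25 of 4710 such Tom- cells, 0.531% (0.344 to 0.783). Their median depths were 19297 and 14645 UMIs, against 13936 and 11217 in the cells with fewer Cd36 UMIs. These cells kept Pdgfra at 418 and 397 CPM. They had Fabp4 at 3639 and 4107 CPM, Lpl at 2329 and 2731 CPM and Plin2 at 439 and 554 CPM, each over 2 times the level in the remaining cells, where Fabp4 was at 1085 and 947 CPM, Lpl at 863 and 906 CPM and Plin2 at 199 and 195 CPM. Of the 25 genes most raised in them in each library, 6 were the same: Cd36 itself, Fabp4, Meox2, Gsc, Cd300lg and Cldn15. Car3 was at 308 CPM in these 25 Tom- and 3.53 CPM in these 58 Tom+ cells. Over all stromal cells a Car3 UMI was found in only 77 of 4800 Tom- and 35 of 3263 Tom+ cells, so a few cells may make up these values. The cells were picked by Cd36 itself after its distribution was seen, so these values are a description.

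**Figure D2:**
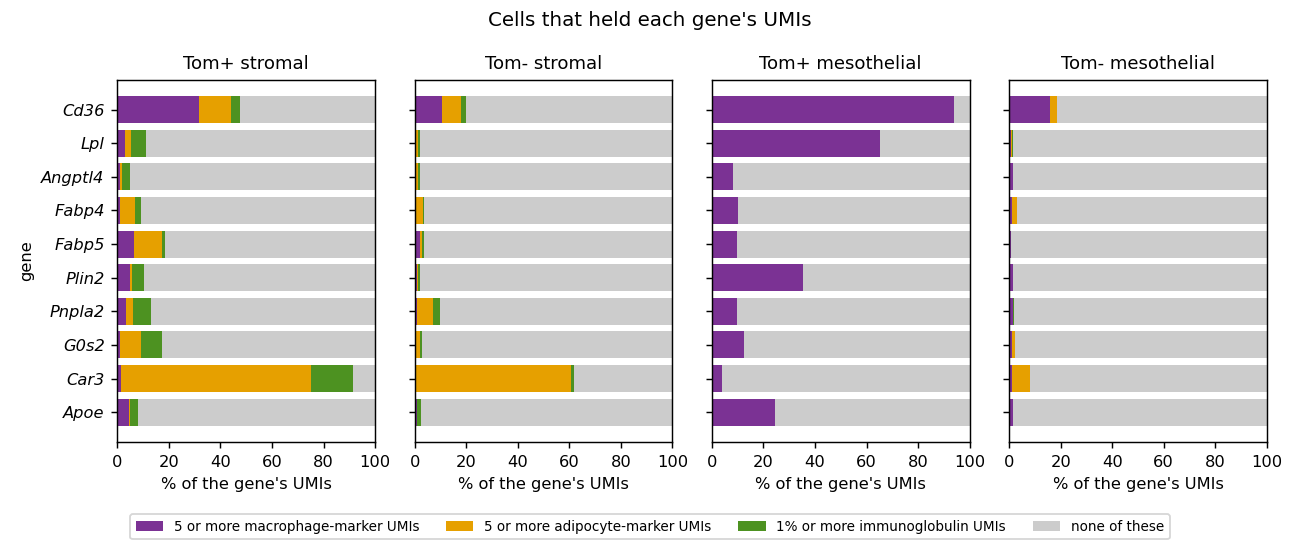
Share of each gene's UMIs (percent, horizontal axis) by the kind of cell that held them, for stromal and mesothelial cells of each library; the colours mark cells with at least 5 UMIs of macrophage markers, with at least 5 UMIs of adipocyte markers, with at least 1% immunoglobulin UMIs, and with none of these. In Tom+ mesothelial cells, macrophage-marker cells held 93.8% of Cd36 and 65.1% of Lpl UMIs, the latter mostly in a single cell. In stromal cells adipocyte-marker cells held 73.6% (Tom+) and 60.7% (Tom-) of Car3 UMIs.

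RefSeq places a Cd36 start inside the span given above, and the 250 bases before it (build GRCm38.p6, chr5:17835897-17836146, minus strand) are printed because Cd36 had the largest difference between Tom+ and Tom- cells in both classes over all cells, although without marker-bearing cells Car3 (stromal) and G0s2 (mesothelial) had larger ones. Capitals mark each CCAAT (either strand) and each nuclear receptor half-site AGGTCA (either strand, so that TGACCT is the same site read backwards). Plin2, the other gene with both motifs, and G0s2, the gene with the largest difference between stromal and mesothelial cells, are set beside it for comparison (chr4:86670061-86670309 and chr1:193273218-193273438, both minus strand), without the bases that GENCODE places in an exon.
Cd36: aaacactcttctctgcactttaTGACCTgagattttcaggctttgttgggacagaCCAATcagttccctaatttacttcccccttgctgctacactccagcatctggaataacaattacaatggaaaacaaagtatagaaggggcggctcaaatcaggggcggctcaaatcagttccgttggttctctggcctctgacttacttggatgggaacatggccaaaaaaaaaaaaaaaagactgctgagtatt
Plin2: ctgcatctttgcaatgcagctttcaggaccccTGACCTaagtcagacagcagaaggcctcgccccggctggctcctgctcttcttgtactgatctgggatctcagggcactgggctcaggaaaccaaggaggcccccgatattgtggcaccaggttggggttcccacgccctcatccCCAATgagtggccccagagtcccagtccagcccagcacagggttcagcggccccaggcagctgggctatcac
G0s2: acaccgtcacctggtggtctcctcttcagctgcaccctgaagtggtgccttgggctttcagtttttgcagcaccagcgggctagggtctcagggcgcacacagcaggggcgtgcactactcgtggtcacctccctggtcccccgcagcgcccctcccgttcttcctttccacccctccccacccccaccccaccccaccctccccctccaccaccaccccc
The Cd36 and Plin2 windows each hold 1 CCAAT and 1 half-site, the latter at -228 and -218 from the start, and the G0s2 window holds neither. Among all 32851 RefSeq windows of this length, 33.8% hold a CCAAT and 14.0% a half-site. The direct repeat of the half-site with 1 base between (any letter, either strand), the form that PPARγ with its partner RXR is known to bind, is in 0.0335% of windows and in none of those of the 5 members with an entry (Cd36, Plin2, Pnpla2, G0s2 and Apoe, the last with 3 starts). GC content was 43.2% for Cd36, 61.6% for Plin2 and 67.2% for G0s2 over the 250 bases, against a median of 52.4% over all windows. A match is only a match of letters, and these windows are short.

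Lpl encodes lipoprotein lipase, the enzyme that hydrolyses triglyceride of circulating lipoproteins. The gene (ENSMUSG00000015568) lies on chromosome 8 from 68880491 to 68907448. It was at 888 CPM (880 to 896) in Tom+ against 900 CPM (892 to 908) in Tom- stromal cells, and a UMI was found in 90.4% and 91.8% of the cells. The stromal libraries differed by a log2 ratio of -0.02 (-0.038 to -0.0015), below the median of all genes. Lpl RNA was about 14-fold lower in mesothelial cells, at 63.5 CPM (56.9 to 70.6) and 63.1 CPM (60.4 to 65.9), log2 ratios of -3.81 and -3.83. These near-equal mesothelial levels came from different cells. The 20 Tom+ mesothelial cells with macrophage markers contained 65.1% of the Lpl UMIs, at 401 CPM (350 to 457), whereas the 17 such Tom- cells contained 0.686%, at 30.2 CPM (16.5 to 50.6). A single Tom+ cell held 177 of the 220 Lpl UMIs of those 20 cells, so their level is largely that of this cell. Without the marker-bearing cells Lpl was at 24.7 CPM (20.5 to 29.6) in Tom+ against 63.1 CPM (60.4 to 65.9) in Tom- mesothelial cells, a log2 ratio of -1.35 (-1.63 to -1.08). In mesothelial cells of both libraries, the 10% of cells with the most held 82.5% and 84.4% of all Lpl UMIs, and Scrublet, a doublet caller, marked 2 of the 250 Tom+ and 104 of the 1887 Tom- mesothelial cells as likely doublets. Without these, the mesothelial Lpl ratio of Tom+ over Tom- was 1.14 on the log2 scale, opposite in sign to the value without macrophage-marker cells, so no direction is read from it.

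Angptl4 is a secreted inhibitor of lipoprotein lipase that is induced by fasting, hypoxia and fatty acids (ENSMUSG00000002289, chromosome 17 from 33773750 to 33781830, minus strand). It was at 279 CPM (275 to 284) in Tom+ against 195 CPM (192 to 199) in Tom- stromal cells, a log2 ratio of 0.52 (0.48 to 0.55). After thinning, an Angptl4 UMI was found in 68.2% (66.5 to 69.9) of Tom+ and 50.7% (49.2 to 52.3) of Tom- stromal cells. In the immunoglobulin-rich cells, unthinned and at median depths of 40639 and 41350 UMIs, the shares were 42.1% and 34.9%. The difference was larger without marker-bearing cells, with a log2 ratio of 0.60 (0.57 to 0.64). Mesothelial levels were 58.1 CPM (51.8 to 64.9) and 63.9 CPM (61.1 to 66.7), and the interval of their log2 ratio, -0.31 to 0.036, held 0. Across stromal cells Angptl4 followed Txnip, with Pearson r of 0.487 and 0.556 in the Tom+ and Tom- library, and Jun, with 0.440 and 0.476. Jun belongs to the response of cells to tissue dissociation. Of the 12 genes of that list 5 were lower and none higher in Tom+ stromal cells by the same rule. Over all genes tested, 8.16% were lower and 14.8% higher. The 12 genes had a median log2 ratio of -0.29. Their part in the Angptl4 difference was not tested.

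Fabp4, the adipocyte fatty acid binding protein, and Fabp5, its epidermal relative that is also found in macrophages, shuttle fatty acids inside the cell. They are neighbours on chromosome 3 with 187480 bases between them: Fabp4 (ENSMUSG00000062515) from 10204088 to 10208576 on the minus strand, and Fabp5 (ENSMUSG00000027533) from 10012548 to 10016607 on the plus strand. They showed opposite class patterns. Fabp4 was at 1109 CPM (1100 to 1118) and 964 CPM (956 to 972) in Tom+ and Tom- stromal cells, and at 89.4 CPM (81.6 to 97.8) and 116 CPM (112 to 119) in mesothelial cells. That made it 12.4-fold lower in mesothelial cells of the Tom+ and 8.34-fold lower in those of the Tom- library. Fabp5 was at 101 CPM (98.3 to 104) and 77.2 CPM (74.9 to 79.5) in stromal cells, and at 279 CPM (265 to 293) and 325 CPM (319 to 331) in mesothelial cells, 2.76-fold and 4.21-fold higher than in stromal cells. Fabp5 was less concentrated in mesothelial cells, with a UMI in 87.6% and 84.2% of them and 4 and 3 UMIs in the median cell. In stromal cells the median was 0, and the 10% of cells with the most held 68.3% and 69.3% of its UMIs.

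For Fabp4, Tom+ exceeded Tom- stromal cells by a log2 ratio of 0.20 (0.19 to 0.22), under the fold, and lay below Tom- cells in mesothelial cells, at -0.37 (-0.51 to -0.23). Without the cells Scrublet marked the mesothelial Fabp4 ratio was 0.17, the other way round. For Fabp5 the ratio was 0.39 (0.33 to 0.45) in stromal and -0.22 (-0.30 to -0.14) in mesothelial cells. The stromal Fabp5 call rested on very few cells. The 6 Tom+ stromal cells with at least 5 UMIs of adipocyte markers and under 5 of macrophage markers held 562 of 5164 Fabp5 UMIs, 10.9%. The highest count in a single Tom+ stromal cell was 550. In the 5 such Tom- cells Fabp5 was at 230 CPM, against 3313 CPM in the 6 Tom+ cells. In stromal cells without the marker-bearing ones Fabp5 was at 94.0 and 77.7 CPM, a log2 ratio of 0.28 (0.21 to 0.34), below the fold.

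Plin2, also called adipophilin, coats small lipid droplets in most cell types (ENSMUSG00000028494, chromosome 4 from 86648386 to 86670060, minus strand). It was at 201 CPM (197 to 205) and 193 CPM (189 to 197) in Tom+ and Tom- stromal cells, a log2 ratio of 0.06 (0.018 to 0.096) that lay below the median of all genes. Mesothelial levels were 86.4 CPM (78.7 to 94.7) and 78.5 CPM (75.5 to 81.6), 2.32-fold and 2.46-fold below stromal cells. Macrophage-marker cells held 35.2% of the Plin2 UMIs of Tom+ mesothelial cells. In mesothelial cells without the marker-bearing ones Plin2 was at 62.4 CPM in Tom+ against 78.5 CPM in Tom- cells, a log2 ratio of -0.33 (-0.51 to -0.16), where all cells together gave 0.14 (-0.0084 to 0.28).

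Pnpla2 encodes adipose triglyceride lipase, which takes the first fatty acid off stored triglyceride, and G0s2 encodes its inhibitor. Pnpla2 (ENSMUSG00000025509, chromosome 7 from 141455198 to 141460743) had 24.4 CPM (23.1 to 25.8) in Tom+ against 23.2 CPM (22.0 to 24.5) in Tom- stromal cells, and 36.8 CPM (31.8 to 42.4) and 35.3 CPM (33.3 to 37.4) in mesothelial cells. The interval of its log2 ratio of Tom+ over Tom- held 0 in both classes, with 0.07 (-0.042 to 0.18) in stromal and 0.06 (-0.17 to 0.28) in mesothelial cells. The mesothelial cells had 1.51-fold and 1.52-fold more than stromal cells. G0s2 (ENSMUSG00000009633, chromosome 1 from 193272161 to 193273217, minus strand) overlaps Lamb3 on the opposite strand. Its RNA was at 156 CPM (152 to 159) in Tom+ against 182 CPM (179 to 186) in Tom- stromal cells, a log2 ratio of -0.23 (-0.27 to -0.19).

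In mesothelial cells of the Tom+ library G0s2 was near the floor of detection, at 1.5 CPM (0.649 to 2.96). This came from 8 UMIs in 250 cells with no cell holding more than 1. Mesothelial cells of the Tom- library had 12.7 CPM (11.5 to 14.0). The lipase and its inhibitor therefore had opposite class patterns, with G0s2 14.3-fold lower and Pnpla2 1.52-fold higher in Tom- mesothelial cells than in Tom- stromal cells. The Tom+ mesothelial level was 8.47-fold below the Tom- level, a log2 ratio of -3.08 (-4.30 to -2.09), and without marker-bearing cells it was -3.11 (-4.43 to -2.05). After thinning, a G0s2 UMI was found in 1.62% (0.443 to 4.09) of Tom+ and 5.82% (4.78 to 7.0) of Tom- mesothelial cells. At full depth 193 of 1887 Tom- mesothelial cells (10.2%) held a G0s2 UMI, and the highest count in a single cell was 20 of the 412 UMIs. Without the cells Scrublet marked the log2 ratio was -2.20 and G0s2 no longer reached the 5 CPM required for a call.

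Car3 encodes carbonic anhydrase III, which is abundant in mature adipocytes and muscle (ENSMUSG00000027559, chromosome 3 from 14863512 to 14872523). It was at 8.67 CPM (7.88 to 9.51) in Tom+ against 15.9 CPM (14.9 to 17.0) in Tom- stromal cells, a log2 ratio of -0.88 (-1.04 to -0.71), and at 9.77 CPM (7.30 to 12.8) and 15.9 CPM (14.5 to 17.3) in mesothelial cells. A single Tom+ mesothelial cell held 37 of the 52 Car3 UMIs of its class. A Car3 UMI was found in only 1.07% of Tom+ and 1.60% of Tom- stromal cells, at median depths of 14235 and 11270 UMIs. Cells with at least 20% immunoglobulin UMIs had shares of 1.59% (0.193 to 5.62) and 4.65% (0.568 to 15.8) at median depths of 40639 and 41350 UMIs. These rest on 2 cells in each library, and 1 Tom+ cell held 71 of the 72 Car3 UMIs there, so they do not give a background share. Of the mesothelial Car3 UMIs, 96.2% (Tom+) and 91.8% (Tom-) lay outside marker-bearing cells. In stromal cells most Car3 UMIs came from a handful of cells with adipocyte RNA. In the Tom+ library 6 stromal cells held 73.6% of the Car3 UMIs, at 1922 CPM (1719 to 2142), and in the Tom- library 5 cells held 60.7%, at 4775 CPM (4388 to 5188).

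Those 6 and 5 cells had Adipoq, the adipocyte hormone adiponectin, at 124 and 759 CPM, and Fabp4 at 19370 and 12228 CPM. These cells were picked by a marker list that includes Adipoq but not Fabp4. They made up 0.184% and 0.104% of the stromal cells, and contained 12.7% and 7.32% of the Cd36 UMIs. Outside all marker-bearing cells, Car3 was at 0.848 CPM (0.600 to 1.16) in Tom+ against 6.35 CPM (5.70 to 7.05) in Tom- stromal cells, a log2 ratio of -2.90 (-3.43 to -2.42), with 38 and 352 UMIs. Among stromal cells with a Pdgfra UMI the direction turned, to a log2 ratio of 0.67.

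Apoe encodes apolipoprotein E, a lipoprotein component that many cell types of the tissue secrete (ENSMUSG00000002985, chromosome 7 from 19696109 to 19699188, minus strand). It was at 2524 CPM (2510 to 2538) and 2594 CPM (2581 to 2607) in stromal cells and at 1440 CPM (1408 to 1472) and 1428 CPM (1415 to 1442) in mesothelial cells. Apoe was found in nearly every cell, with a UMI in 94.6% and 93.5% of stromal and 100% and 99.5% of mesothelial cells. Its level was close between libraries, with log2 ratios of -0.04 (-0.050 to -0.028) in stromal and 0.01 (-0.024 to 0.046) in mesothelial cells. Mesothelial cells had 1.75-fold and 1.82-fold less than stromal cells. In Tom+ mesothelial cells 24.7% of Apoe UMIs were in the macrophage-marker cells, at 3446 CPM, and without marker-bearing cells the level was 1209 CPM in Tom+ against 1428 CPM in Tom- cells, a log2 ratio of -0.24 (-0.28 to -0.20).

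**Figure D3:**
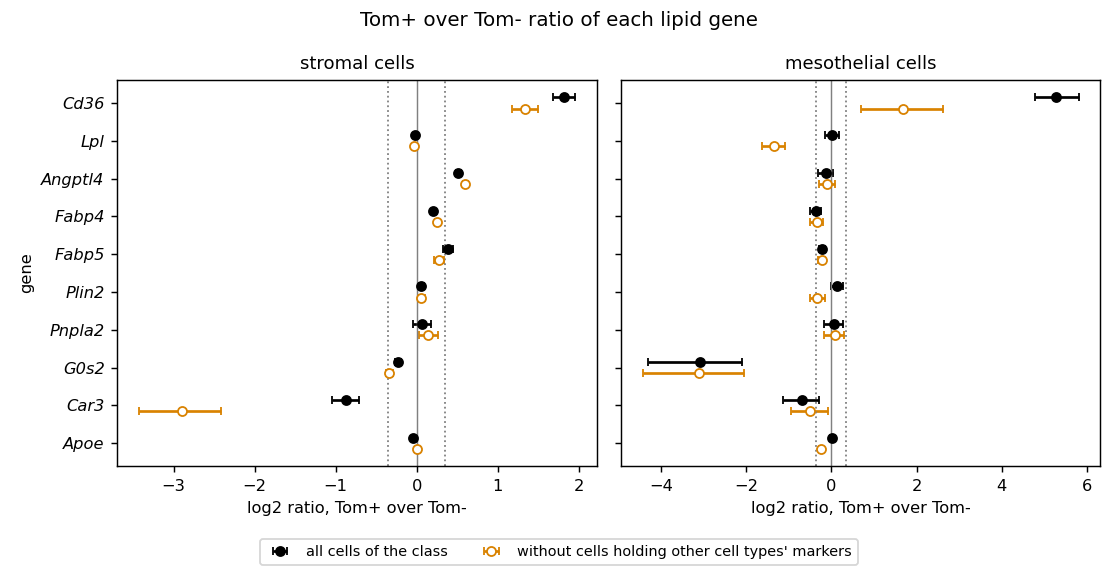
Log2 ratio of Tom+ over Tom- for each gene in stromal cells (left) and mesothelial cells (right; the axes differ in range), with exact 95% counting intervals; black points use all cells of the class, open orange points leave out cells with macrophage, adipocyte or immunoglobulin RNA, and dotted lines mark 0.35 in either direction. Leaving those cells out lowered the mesothelial Cd36 ratio from 5.27 to 1.69 and the mesothelial Lpl ratio from 0.01 to -1.35, and moved stromal Angptl4 from 0.52 to 0.60.

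Within the stromal cells the genes were higher where Pparg, the gene of PPARγ, was detected. Cells thinned to 1 depth were divided into those with a Pparg UMI and no UMI of Dpp4 or Pi16 (276 Tom+ and 481 Tom- cells), those with at least 2 UMIs of Dpp4 and Pi16, surface proteins of early progenitors, and no Pparg UMI (604 and 927 cells), and those with none of the 3 genes (1662 and 2204 cells). All 10 genes were higher in Pparg than in Dpp4 or Pi16 cells by a log2 ratio of at least 0.35 in both libraries, beside 10.4% of the 9437 genes tested, though the interval of Pnpla2 held 0 in the Tom+ library. Without marker-bearing cells Pnpla2 was at 0.31 and 0.40, with intervals that held 0 in both libraries, and Car3 rested on 3 against 4 UMIs in the Tom+ library. Fabp4 was at 2154 against 368 CPM in the Tom+ library and at 1901 against 204 CPM in the Tom- library, 5.86-fold and 9.33-fold higher. Plin2 was 5.30-fold and 6.08-fold higher, G0s2 4.00-fold in both, and Lpl 3.50-fold and 3.63-fold. Cd36 was at 82.9 against 2.19 CPM and at 38.5 against 0.428 CPM, and Car3 at 26.3 against 0.876 CPM and at 77.2 against 0.998 CPM. These low values come from single UMIs in few cells, since 1 UMI in a thinned cell is worth 132 CPM. Cd36 and Car3 thus reached the mean of 5 CPM required for a call only through the Pparg cells. Apoe, at 3258 and 3257 CPM, was highest in cells with none of the 3 genes, above the Pparg cells at 3067 and 2693 CPM. Fabp5 had this order in the Tom- library alone, with 90.9 CPM in cells with none of the 3 genes against 71.2 CPM in Pparg cells.

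**Figure D4:**
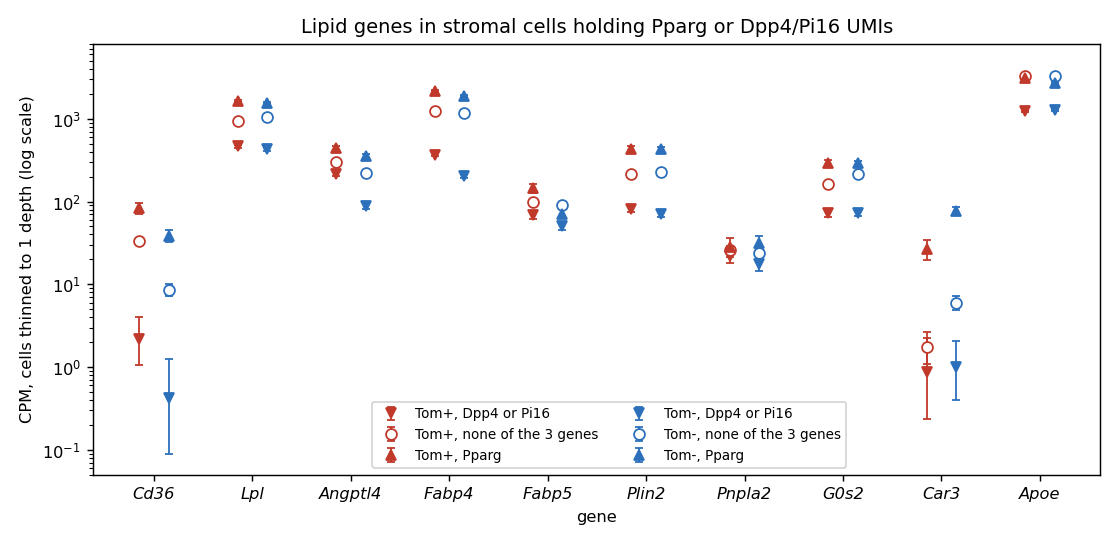
CPM on a log scale in stromal cells thinned to 1 depth, for cells with Pparg (upward triangles), with Dpp4 or Pi16 (downward triangles) and with none of the 3 genes (open circles), red for Tom+ and blue for Tom-, with exact Poisson 95% intervals. Fabp4 goes from 368 to 2154 CPM in Tom+ and from 204 to 1901 CPM in Tom- cells, and Angptl4 of Dpp4 or Pi16 cells stands at 216 CPM in Tom+ against 87.9 CPM in Tom- cells.

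The difference between the libraries depended on the cell state. In the Dpp4 or Pi16 cells, Angptl4 was at 216 CPM in Tom+ against 87.9 CPM in Tom- cells, a log2 ratio of 1.3 (1.15 to 1.44), and Fabp4 at 368 and 204 CPM, a ratio of 0.85 (0.75 to 0.95). In the Pparg cells the same genes differed by 0.31 (0.19 to 0.44) and 0.18 (0.13 to 0.23). The Fabp5 ratio was 0.44 (0.22 to 0.66) in Dpp4 or Pi16 cells and 1.02 (0.77 to 1.26) in Pparg cells, and without marker-bearing cells the latter was 0.58 (0.31 to 0.85), from 211 and 251 UMIs. Car3 was lower in Tom+ Pparg cells, by a log2 ratio of -1.55 (-2.0 to -1.13), but it was found in only 1.45% of 276 Tom+ and 2.91% of 481 Tom- cells. Without marker-bearing cells 3 and 78 Car3 UMIs were left in them. G0s2 was lower in Tom+ cells with none of the 3 genes, at -0.40 (-0.48 to -0.32), and close to level in the other states, at -0.02 in Pparg and -0.01 in Dpp4 or Pi16 cells. Without marker-bearing cells G0s2 of Pparg cells was at -0.21 (-0.36 to -0.051). Whether these ratios differ between states beyond replicate error could not be tested. A tdTomato UMI was found in 20.2% (603 of 2992) of thinned Tom+ stromal cells and in 9.15% of Tom- ones, so it does not separate the sorts cleanly. The source of these UMIs in Tom- cells was not examined. Against Tom+ cells without one, the 603 cells had less Angptl4, 234 against 307 CPM or a log2 ratio of -0.39 (-0.48 to -0.29), and less Fabp5, -0.34 (-0.50 to -0.17). Lpl, Fabp4, G0s2 and Apoe were also lower by intervals that left out 0, with ratios from -0.22 to -0.12, and Cd36 was higher, 0.30 (0.028 to 0.57). In the Tom- library the same ratios were 0.03 for Angptl4, 0.07 for Fabp5 and -0.64 for Cd36, each with an interval that held 0, while Lpl and Fabp4 were lower there too, at -0.097 and -0.13. Car3 was also lower in the Tom- library, at -1.56 (-2.48 to -0.77). It was found in only 1.84% of the Tom- cells with a tdTomato UMI and 1.22% of those without.

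Several of the genes went together from cell to cell. Of the 45 pairs, 12 had a Pearson r above 0.2 in both libraries over 2992 Tom+ and 4153 Tom- stromal cells, and 23 lay within 0.1 of 0 in both. Lpl, Angptl4, Fabp4, Plin2 and G0s2, the same 5 genes that were lower in mesothelial cells, made up 10 of the 12 pairs, the highest being Lpl with Plin2 at 0.416 and 0.346. The remaining pairs were Fabp4 with Apoe, at 0.298 and 0.262, and Cd36 with Car3, at 0.206 and 0.281. The last pair rests on few cells: Spearman's rho was 0.135 and 0.139, Car3 was found in 22 and 53 thinned cells, and without marker-bearing cells Pearson's r was 0.096 and 0.209. Fabp5 and Pnpla2 had no pair above 0.2. Fabp5 averaged 0.728 and 0.601 UMIs and Pnpla2 0.186 and 0.174 UMIs per thinned cell, against 1.16 to 8.30 for the 5 genes. Low counts limit r, so the low values of Fabp5 and Pnpla2 do not show that they vary apart from the others. All cells of a library share its preparation, so these are descriptions.

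**Figure D5:**
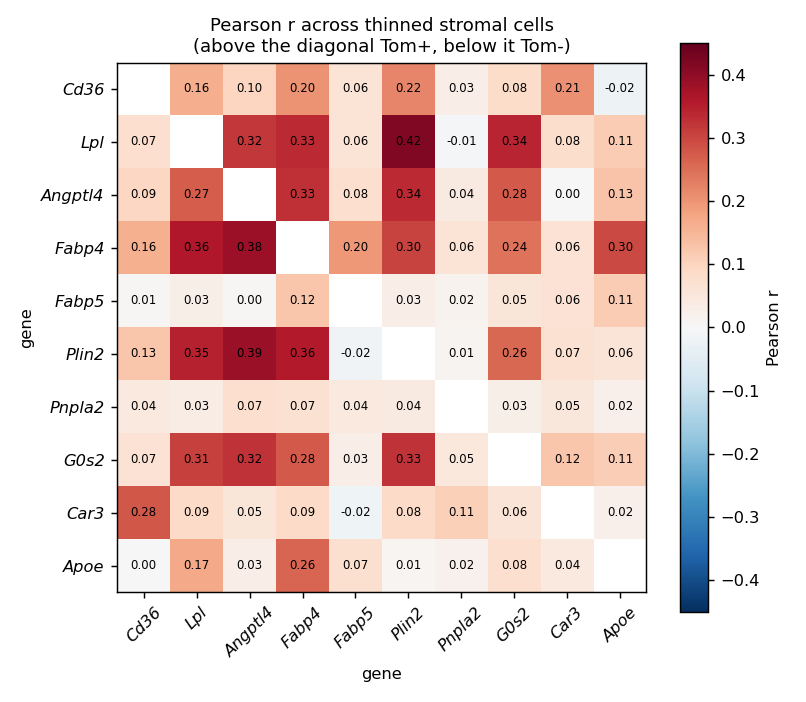
Pearson r of log(1 + UMI) for each pair of the 10 genes across stromal cells thinned to 1 depth, with the Tom+ library above and the Tom- library below the diagonal, on a colour scale from blue (negative) to red (positive). The block of Lpl, Angptl4, Fabp4, Plin2 and G0s2 runs from 0.245 to 0.416, and Fabp5 and Pnpla2 are near 0 with most genes.

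Among the 6840 genes with at least 0.1 UMIs per thinned stromal cell in both libraries, those most like Lpl were Col4a1, a basement membrane collagen, at 0.543 and 0.472, Sparcl1 and Gpx3. Fabp4 was closest to Col4a1 too, at 0.436 and 0.403, and Plin2 and G0s2 to Lpl itself, at 0.416 and 0.346 and at 0.342 and 0.308. Apoe was closest to the complement gene C4b, at 0.520 and 0.512, followed by Col6a5 and Igf1. Cd36 was closest to Lyz2, at 0.374 and 0.240. For Fabp5, Pnpla2 and Car3 none of these 6840 genes, which do not include Cd36, exceeded 0.2 in both libraries.

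Other genes of the same pathways moved unevenly between Tom+ and Tom- stromal cells. Of 18 tested genes of lipoprotein and fatty acid uptake, 4 were higher in Tom+ cells (among them Vldlr, Slc27a4 and Cavin1) and 3 lower (Cav1, Cav2 and Apoc1), beside 14.8% and 8.16% of all genes tested, the shares to hold also against the Tom+ over Tom- counts of the lists that follow. Vldlr, the receptor for triglyceride-rich lipoproteins, was at 180 against 111 CPM, a log2 ratio of 0.70 (0.65 to 0.75), and Slc27a4, a fatty acid transport protein, at 0.46 (0.28 to 0.65). Apoc1, a lipoprotein component, stood at -0.74 (-0.95 to -0.53) and Cav1, the caveolae scaffold, at -0.51 (-0.60 to -0.43). The median of this list was -0.18, against 0.071 over all genes tested. Of 5 small lipid carriers, Fabp3, the heart-type binding protein, was higher at 0.59 (0.39 to 0.79), Rbp4, the retinol carrier, lower at -0.47 (-0.61 to -0.33), and Scp2, a sterol carrier, lay within the fold at -0.18.

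The droplet list had 1 of 12 genes above the fold and none below, with a median of -0.02. That gene was Plin4, a droplet coat protein of adipocytes, at 16.7 against 4.35 CPM, a log2 ratio of 1.94 (1.73 to 2.15), and at 2.30 (2.08 to 2.53) without marker-bearing cells. Fitm2, which helps droplets bud, was at 0.27, the small GTPase Rab18 at -0.21 and Abhd5, the activator of Pnpla2, at -0.20. Of 8 triglyceride synthesis genes, 3 were higher, all of them lipins, which make diacylglycerol: Lpin1 at 40.7 against 22.8 CPM or 0.84 (0.74 to 0.94), Lpin2, and Lpin3 at 0.38 (0.18 to 0.58). Dgat1, which catalyses the last step to triglyceride, was lower at -0.37 (-0.49 to -0.25), Agpat2 lay at -0.04 and the median was 0.13. Of 14 genes of PPAR signalling and fatty acid oxidation, Rxra, Pdk4 and Cpt2 were higher and none lower, with a median of 0.03. Pdk4, a PPAR target that holds back glucose oxidation, was at 0.61 (0.45 to 0.77) and Cpt2 at 0.52 (0.36 to 0.68), while the oxidation enzymes Ech1 and Acadvl stood at -0.34 and -0.33, within the fold.

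Mesothelial cells differed from stromal cells in these lists as well. Pparg itself was at 1.5 and 1.33 CPM in Tom+ and Tom- mesothelial cells against 19.3 and 21.9 CPM in stromal cells. It reached the mean of 5 CPM required for a call only through the stromal cells. Of the 14 PPAR and oxidation genes it was the only 1 below the fold in either library. Over all genes tested 8.04% were lower in both libraries, so this count is near that share. Vldlr, Lrp1 and Apod were lower in mesothelial cells of both libraries, whereas Cav1 was at 467 and 470 CPM against 38.8 and 55.4 CPM, and Cav2 was also higher. Mgll, the monoacylglycerol lipase that finishes lipolysis, was at 71.2 and 57.4 CPM in mesothelial and 12.6 and 13.0 CPM in stromal cells. Hilpda, another inhibitor of Pnpla2, was lower, at 8.45 and 10.0 CPM against 40.7 and 41.1 CPM, as G0s2 was. These genes were chosen from the fixed lists after their values were seen.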

How the data were processed

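Single-cell RNA was captured with the 10x Genomics 3′ kit v3.1. The authors deposited UMI counts per gene and barcode, whole numbers without normalization. The submitters' processing notes name Cell Ranger 3.0.2 and mm10. The deposited tables had not been filtered on genes or mitochondrial counts, and held 61119807 (Tom+) and 96872394 (Tom-) UMIs. Cells with 1001 to 6999 genes and under 8% mitochondrial UMIs were kept, 3524 Tom+ and 6717 Tom-. Doublets were not removed in the values reported. Scrublet (scanpy 1.11.5) marked 2 Tom+ cells (0.0568%) and 122 Tom- cells (1.82%), and leaving them out was an alternative.

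UMIs were summed per class and library with Python 3.11.15, scaled to CPM, and genes averaging 5 CPM or more over the compared groups were called at a log2 ratio of 0.35 (a limit from one of the study's gene displays, while its methods give a smaller one) between libraries, or of 1 in both libraries between classes. Levels have exact Poisson and ratios and shares exact Clopper-Pearson intervals at 95%, for counting error only. The scripts were tested on simulated data. Thinning drew 7563 UMIs per cell, the 10th percentile of stromal and mesothelial cells, and left out 271 Tom+ and 647 Tom- stromal cells and 3 and 99 mesothelial cells. Named are all 10 genes, the 3 genes most like each, and from each pathway list the 2 highest and 2 lowest Tom+ over Tom- ratios in stromal cells, besides the genes named where a count was given; 2 list genes are not reported here. The genes and lists were chosen with earlier results of these data known. Gene positions are from GENCODE vM21 (GRCm38) and promoter windows from RefSeq (GRCm38.p6), which had entries for 5 of the 10 genes. Values were recomputed under 13 other settings and under 5 chosen after the data were seen: leaving out cells with 1% immunoglobulin UMIs, with 5 macrophage-marker UMIs, with 5 adipocyte-marker UMIs or with any of these, and barcodes that passed in both libraries.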

Additional observations from a re-analysis of the deposited data

Results flagged for a closer look

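Fabp4 and Fabp5 differed between Tom+ and Tom- cells in opposite directions in the 2 classes. Both were higher in Tom+ stromal cells (log2 ratios of 0.20 and 0.39) and lower in Tom+ mesothelial cells (-0.37 and -0.22), so that the mesothelial minus the stromal log2 ratio was -0.573 for Fabp4 and -0.61 for Fabp5. Cd36 was higher in mesothelial than in stromal cells of the Tom+ library (log2 ratio 0.30) and lower in those of the Tom- library (-3.14), a difference of 3.45. Without the cells Scrublet marked, the mesothelial Fabp4 ratio was 0.17, and without the barcodes listed in both libraries the mesothelial Fabp5 ratio was -0.0099. Without cells of 5 or more macrophage-marker UMIs the Tom+ Cd36 ratio of mesothelial over stromal cells was -3.05, so that the libraries no longer differed in direction. In the Tom+ mesothelial cells, 93.8% of the Cd36 UMIs were in 20 cells with macrophage-marker UMIs. None of these differences was tested, since each class has 1 library per sorted population.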

How the results depend on the processing

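No paired analysis was possible because each sorted population has 1 library and the labels carry no replicate numbers. Of the recomputed counts of called genes, 88 stayed within 1.5 times the reported count and 12 did not. Ratios of single genes were less stable: 352 recomputed values were classed as the same, 186 as moved and 2 as reversed. In stromal cells, the count of genes lower in Tom+ cells was 1 as reported, 0 among cells with a Pdgfra UMI, 0 within Dpp4 or Pi16 cells, 0 without cells of 5 or more adipocyte-marker UMIs and 0 without all marker-bearing cells (where Car3 fell under 5 CPM), and 2 at a log2 fold of 0.2 (G0s2 and Car3). In mesothelial cells, the count of genes higher in Tom+ cells was 1 as reported, 2 without the cells Scrublet marked (Cd36 and Lpl) and 0 without cells of 5 or more macrophage-marker UMIs or without all marker-bearing cells, and the count of lower genes went from 3 to 1 (Car3) without the cells Scrublet marked. The count of genes higher in mesothelial than stromal cells went from 1 to 2 at a log2 fold of 0.5 (Fabp5 and Pnpla2) and to 2 without adipocyte-marker cells or without all marker-bearing cells (Fabp5 and Car3). In the Tom+ library that Car3 result rests largely on a single mesothelial cell. Without marker-bearing cells the 3 lower mesothelial genes were Lpl, G0s2 and Car3, no longer Fabp4, and the stromal genes above the fold were Cd36 and Angptl4, no longer Fabp5. Ratios that passed the fold turned for Car3 in stromal cells with a Pdgfra UMI, to 0.67, and for Fabp4 in mesothelial cells without the cells Scrublet marked, to 0.17; the cause was not tested. The latter setting also moved the mesothelial Lpl ratio from 0.01 to 1.14, against -1.36 without macrophage-marker cells. Among ratios within the fold, Cd36 of mesothelial over stromal Tom+ cells went from 0.30 to -3.05 without macrophage-marker cells and to -0.40 without barcodes listed in both libraries. The stromal ratio of Tom+ over Tom- ran from 1.11 to 2.35 for Cd36 and from 0.31 to 1.3 for Angptl4 over the alternatives, and the mesothelial ratio of G0s2 from -3.83 to -2.20. Median-of-ratios size factors shifted every log2 ratio by -0.079 between libraries and by -0.16 between classes. Car3, G0s2 in Tom+ mesothelial cells and Cd36 in Tom- mesothelial cells rest on few UMIs, so their levels have wide counting intervals.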
